A study of Mus musculus with 80 samples.

Results

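The comparison was between hematopoietic progenitor cells (HPC) of mice at postnatal day 14 (P14) that carried an internal tandem duplication (ITD) in 1 allele of Flt3 and HPC of the same age with 2 wild-type Flt3 alleles. All of these cells were heterozygous for Ifnar (labelled Ifnar +/-), so the controls carried 1 Ifnar allele too. The members were the 8 libraries of the series with these titles, 4 labelled Ifnar +/-, Flt3 ITD/+ (called ITD libraries here) and 4 labelled Ifnar +/-, Flt3 +/+ (called controls), of 80 libraries in all. The strain background was B6. The series compared hematopoietic stem cells and HPC across ages and genotypes. Its 9 P14 HPC libraries labelled Ifnar -/-, 5 of them Flt3 ITD/+ and 4 Flt3 +/+, are not part of the comparison. They are used below to set the same Flt3 contrast beside it. The series also holds P14 HPC libraries of an age series, which are not used here. Which organ the cells came from, which markers defined the gate and whether numbered replicates came from separate animals is not stated in the labels. The p-values therefore measure only the spread between libraries, which was estimated over all 17 P14 HPC libraries of these genotypes. They also do not say which Ifnar subunit gene was deleted. In bulk RNA, fewer cells of a type and less RNA per cell cannot be told apart.

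FLT3 is a receptor tyrosine kinase of early progenitors that is switched on by its ligand and feeds the STAT5, RAS-MAPK and PI3K pathways. An ITD lengthens the juxtamembrane segment that holds the kinase off, so that the receptor signals without ligand, and signals from the mutant receptor are known to reach STAT5 strongly. Type I interferon binds the IFNAR1 and IFNAR2 chains, and the signal raises the transcription of genes that carry interferon-stimulated response elements (ISRE).

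The 8 libraries held 58400350 to 92099541 counted reads each, and 17464 genes were tested. Levels are given as CPM, read counts scaled to library size with TMM factors. Genes are described as called where the edgeR quasi-likelihood test (two-sided) gave a Benjamini-Hochberg adjusted p, over all genes tested, below 0.05. CPM is not scaled by gene length, so levels are compared between libraries and not between genes.

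Control replicates 1, 3 and 4 stood apart from control replicate 2 and from the ITD libraries. Over the 4815 genes whose mean log2 CPM was 5 or more, the level of a gene rose with its exon length in control replicate 2 (Spearman rho 0.536) and fell with it in control replicates 1, 3 and 4 (rho -0.505, -0.588 and -0.471). The ITD libraries had rho of 0.424, 0.391, 0.183 and 0.167. Kit, the stem cell factor receptor that defines many progenitor gates, was at 99.6, 1230.3, 97.1 and 338 CPM in control replicates 1 to 4 and at 764, 666, 729.8 and 722 CPM in ITD replicates 1 to 4. Profilin 1 (Pfn1), an actin-binding protein of nearly all cells, was at 76.1, 717, 81.8 and 79.7 CPM in the controls and at 642, 623, 678 and 610.3 CPM in the ITD libraries. For 10 of the 4815 genes, all 3 of these controls lay over 2 log2 units below all 5 remaining libraries, and for 0 genes they lay that far above. Their part in the results was not tested, so the main results are also given against control replicate 2 alone. That fit has a single control, which is assumed to vary like the libraries of the other groups.

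**Figure D1:**
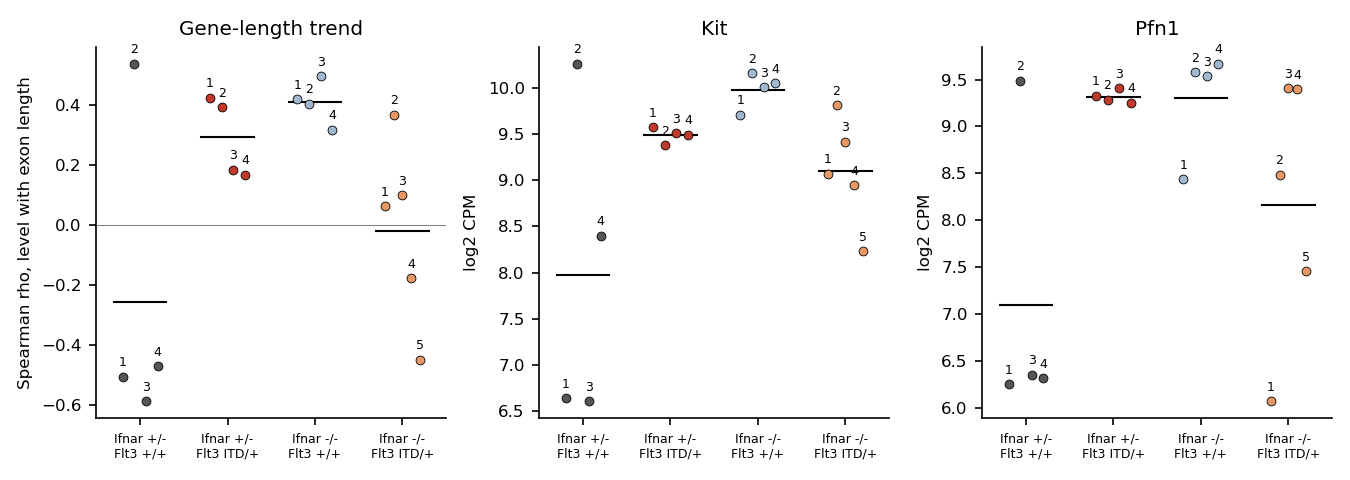
Spearman correlation between log2 level and exon length over genes whose mean log2 CPM was 5 or more (left), and the log2 CPM of Kit and Pfn1, in each P14 HPC library of the Ifnar and Flt3 genotypes. Points are libraries numbered by replicate, and bars are group means. Control replicates 1, 3 and 4 lie below replicate 2 and the ITD libraries in all 3 panels.

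Between ITD and control libraries, 483 genes were called higher (2.77% of genes tested) and 412 lower (2.36%). The genes called higher had a median exon length of 4872 bases and those called lower 2378 bases, against 3549 bases for all genes tested. Across the 4815 higher-level genes, the log2 fold change correlated with exon length (rho 0.53), and its median ran from -0.56 in the shortest of 10 length bins to 0.36 in the longest. Against control replicate 2 alone, these medians were 0.14 and -0.08, and 48 genes were called higher (0.275%) and 86 lower (0.492%). With the length correlation of each library as a covariate, 113 genes were called higher (0.647%) and 101 lower (0.578%). With only the 8 libraries in the fit, 101 of 16042 genes tested were called higher and 63 lower. In that fit 43 of the 93 named genes lost their call. Leaving out control replicates 1 to 4 in turn gave 1.64%, 18.7%, 0.876% and 1.02% of genes called higher and 2.3%, 14.7%, 0.756% and 1.07% lower. Leaving out ITD replicates 1 to 4 in turn gave 1.31%, 1.17%, 0.905% and 1.64% higher and 0.676%, 1.04%, 0.636% and 1.24% lower. Control replicate 2 was thus the library whose removal raised the counts. Counts of list genes given below for a fit are to be set beside the shares of that fit. Of the 895 calls, 195 were called in the same direction with the covariate and 84 against control replicate 2 alone. The length trend of the Flt3 ITD contrast in Ifnar -/- HPC ran the other way (rho -0.533). There the rho of single libraries was -0.449 to 0.367 with the ITD and 0.317 to 0.494 without.

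**Figure D2:**
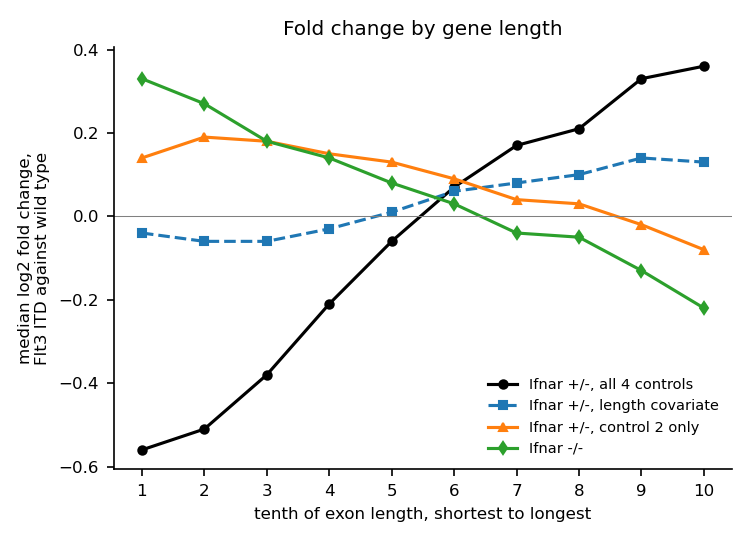
Median log2 fold change of Flt3 ITD against wild type in 10 bins of exon length, for genes whose mean log2 CPM was 5 or more. The fit with all 4 controls runs from -0.56 to 0.36, the fit against control replicate 2 alone from 0.14 to -0.08, and the Ifnar -/- contrast from 0.33 to -0.22.

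The receptors came first. Flt3 was at 111, 1052, 132 and 169 CPM in the controls and at 528, 522, 463 and 456 CPM in the ITD libraries. The ITD libraries thus lay between control replicate 2 and the other controls, and the groups overlapped. The log2 fold change was 0.43 ± 0.61 (SE, adjusted p = 0.672), and -1.11 ± 0.54 against control replicate 2 alone. Read counts per gene do not tell an ITD transcript from a wild-type one. Ifnar1 was at 26.9, 49.7, 20.6 and 38 CPM in the controls and at 55.6, 55.9, 47.6 and 48.9 CPM in the ITD libraries, a log2 difference of 0.62 ± 0.2 (adjusted p = 0.0688) and of 0.05 against control replicate 2 alone. Ifnar2 gave 0.73 ± 0.34 (adjusted p = 0.16) with all controls and -0.25 against control replicate 2 alone. Of 34 tested genes of the Flt3 signalling path, 3 were called higher and 1 lower, against 2.77% higher and 2.36% lower of all genes. The 1 lower call was near that share. The higher ones were Gab2, an adaptor of the PI3K path, the kinase subunit Pik3cd and the tyrosine kinase Fes, and the lower one was Sh2b3, an adaptor that restrains JAK2 and Kit. None of the 4 was called against control replicate 2 alone. With single libraries left out, 1 (without control replicate 3 or 4, or ITD replicate 1, 2 or 3) to 16 (without control replicate 2) were called higher. The fit without control replicate 2 called 18.7% of all genes higher. Sh2b3 was called only with all controls or without control replicate 1 or 2, among the fits that left out 1 library.

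Of 19 STAT5 target genes tested, 8 were called higher in ITD HPC, 1 was called lower and the others did not pass the test, with a median log2 fold change of 1.03 against -0.006 for all genes. Against control replicate 2 alone, 2 were called higher and 0 lower, with a median of 0.6 against 0.017 for all genes. Leaving out 1 library at a time, 5 (without control replicate 3 or ITD replicate 3) to 10 (without control replicate 2) were called higher. Socs2, a feedback inhibitor of cytokine receptors, was at 11.9, 7.75, 4.89 and 8.67 CPM in the controls and at 129, 170.2, 93.8 and 122 CPM in the ITD libraries. Every ITD library was far above every control, the apart-standing ones included. The increase was 15.5-fold (log2 3.96 ± 0.25, adjusted p = 4.77e-08), and log2 4.04 (adjusted p = 2.13e-05) against control replicate 2 alone. Cish, another SH2 inhibitor of the same family and a classical STAT5 target, was at 12.3, 24.3, 16 and 13 CPM in the controls and at 60.5, 83.1, 47.8 and 56.7 CPM in the ITD libraries (log2 1.92 ± 0.27, adjusted p = 0.000595). The groups did not overlap, and against control replicate 2 alone the value was 1.34 (adjusted p = 0.19).

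Serpina3g, a protease inhibitor induced by cytokines, was at 356, 332, 419 and 336 CPM in the controls and at 661, 700.0, 836 and 758 CPM in the ITD libraries. It rose by 1.03 ± 0.16 on the log2 scale (adjusted p = 0.00114), and the value was 1.14 (adjusted p = 0.0513) against control replicate 2 alone. Id1, an inhibitor of basic helix-loop-helix factors, rose from 11.1, 3.24, 5.26 and 6.12 CPM to 20.2, 18.9, 25.4 and 15 CPM (log2 1.63 ± 0.33, adjusted p = 0.0102; adjusted p = 0.0235 against control replicate 2 alone). The survival kinases Pim1 (log2 1.23 ± 0.22) and Pim2 (1.79 ± 0.5), Myc (1.1 ± 0.24) and the anti-apoptotic Bcl2l1 (1.04 ± 0.26) were called higher too, and none of them was called against control replicate 2 alone. With 1 library left out, the highest adjusted p was 0.131 for Pim2 and 0.0915 for Bcl2l1 (both without control replicate 3) and 0.0636 for Myc (without control replicate 4). The target called lower was Ccnd1, which encodes cyclin D1 and is also a MAPK target: it was at 14.3, 15.5, 19.1 and 11.9 CPM in the controls and at 4.09, 3.84, 1.63 and 1.8 CPM in the ITD libraries (log2 -2.42 ± 0.39, adjusted p = 0.00174; -2.46, adjusted p = 0.0721, against control replicate 2 alone). With both Ifnar alleles deleted (Ifnar -/-), 4 of the 19 targets were called higher and 2 lower, against 0.647% and 0.309% of all genes. The median log2 fold change was 0.51, against 0.003 for all genes. Socs2 (log2 3.83), Cish (1.86), Serpina3g (1.58) and Id1 (2.05) were the 4 higher ones, and Ccnd1 (-2.2) was among the lower ones. Pim1, Pim2, Myc and Bcl2l1 were not called there, and Bcl2l1 stood at -0.01.

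The promoters of Cish, Serpina3g and, among the genes described next, Irf8 held the STAT motif TTCNNNGAA in the RefSeq window of 250 bases before to 50 after the gene start. They are shown because these genes were called higher in ITD HPC. All are from GRCm38.p6, on the + strand: Cish at chr9:107296409-107296708, Serpina3g at chr12:104235897-104236196 and Irf8 at chr8:120736108-120736407 (1 of 2 windows listed for Irf8). Capitals mark the motif, which reads the same on both strands.
Cish: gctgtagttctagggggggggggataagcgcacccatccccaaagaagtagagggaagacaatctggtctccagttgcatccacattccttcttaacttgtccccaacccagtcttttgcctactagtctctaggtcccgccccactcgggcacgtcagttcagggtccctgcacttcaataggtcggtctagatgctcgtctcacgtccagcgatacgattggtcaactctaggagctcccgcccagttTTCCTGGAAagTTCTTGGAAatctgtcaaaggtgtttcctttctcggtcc
Serpina3g: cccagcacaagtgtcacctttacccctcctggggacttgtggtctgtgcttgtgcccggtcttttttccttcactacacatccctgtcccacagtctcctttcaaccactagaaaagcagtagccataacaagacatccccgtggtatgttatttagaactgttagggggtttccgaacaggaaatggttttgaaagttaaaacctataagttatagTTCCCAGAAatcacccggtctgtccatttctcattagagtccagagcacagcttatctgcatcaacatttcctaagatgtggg
Irf8: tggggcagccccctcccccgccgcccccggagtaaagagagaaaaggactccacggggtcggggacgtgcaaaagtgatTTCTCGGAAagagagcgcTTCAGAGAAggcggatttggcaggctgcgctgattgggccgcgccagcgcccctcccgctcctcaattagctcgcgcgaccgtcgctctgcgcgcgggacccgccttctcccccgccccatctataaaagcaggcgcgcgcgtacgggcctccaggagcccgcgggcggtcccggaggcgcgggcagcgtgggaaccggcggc
The motif stood 2 times in the windows of Cish and Irf8 and 1 time in that of Serpina3g. It was in a promoter of 4 of the 13 STAT5 targets with an entry (30.8%), of 13 of the 43 interferon-response genes with one (30.2%) and of 9.55% of all 27025 genes with one. Socs2 was not among the entries.

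Of 13 tested genes that report MAPK output, 3 were called lower in ITD HPC (Dusp6, Spred2 and Ccnd1, the last also counted among the STAT5 targets) and 0 higher, with a median log2 fold change of -1.27, and with single libraries left out 3 to 5 were called lower (5 without control replicate 2). Against control replicate 2 alone, 4 were called lower and 0 higher, with a median of -1.3, and 12 of 13 had a negative value in both fits. Dusp6, the phosphatase that switches ERK off, was at 63.5, 220.0, 93.1 and 161 CPM in the controls and at 36.6, 58, 43.4 and 35.6 CPM in the ITD libraries. Its highest ITD library lay below its lowest control, and it fell by 1.63 ± 0.31 on the log2 scale (adjusted p = 0.00583; log2 -2.35, adjusted p = 0.000654, against control replicate 2 alone). Spred2, an inhibitor of RAS signalling, went from 7.33, 7.46, 9.58 and 6.25 CPM to 3.52, 2.54, 3.46 and 2.68 CPM (log2 -1.33 ± 0.19, adjusted p = 0.000526; -1.3, adjusted p = 0.0274, against control replicate 2 alone). Etv5, an ETS factor downstream of ERK, was at 11.5, 45.9, 14.2 and 17.2 CPM in the controls and 9.42, 10, 8.57 and 6.39 CPM in the ITD libraries, a difference that was not called with all controls (log2 -1.37 ± 0.42, adjusted p = 0.0638) and was against control replicate 2 alone (-2.43, adjusted p = 0.0325). Spry2, another feedback inhibitor, was likewise called against control replicate 2 alone (-1.46, adjusted p = 0.0365) and not with all controls (-0.23, adjusted p = 0.774). The control replicates 1 and 3 held 6.77 and 7.96 CPM of Spry2, below the 17.5 to 20.6 CPM of the ITD libraries, and replicates 2 and 4 held 53 and 22.8 CPM, above them. Dusp5, a further ERK phosphatase, did not pass the test (0.4 ± 0.19, adjusted p = 0.173) and was the only member with a positive value with all controls.

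Of 14 tested immediate early genes, Egr1 was the only one called, and the list's median log2 fold change was -0.43. Egr1 is described here with Gem and Etv1, which are on neither list and are among the genes of largest decrease. Gem, a small GTP-binding protein induced by growth signals, was at 42.1, 99, 112 and 85.3 CPM in the controls and at 6.53, 10.1, 5.99 and 7.36 CPM in the ITD libraries, an 11.3-fold decrease (log2 -3.5 ± 0.3, adjusted p = 3.53e-06). Against control replicate 2 alone it was -3.73 (adjusted p = 2.13e-05). Egr1, an immediate early zinc-finger factor downstream of ERK, was at 3.14, 4.66, 4.23 and 3.92 CPM in the controls and at 0.453, 1.11, 0.805 and 0.636 CPM in the ITD libraries (log2 -2.41 ± 0.36, adjusted p = 0.000906). Etv1, an ETS factor, went from 4.6, 10.7, 6.23 and 8.95 CPM to 0.453, 0.906, 0.439 and 1.16 CPM (log2 -3.35 ± 0.47, adjusted p = 0.000595). The ITD and control libraries of Gem, Egr1 and Etv1 did not overlap. The Ifnar -/- contrast was alike in direction for most of these: Dusp6 (log2 -2.2), Spred2 (-1.02), Etv5 (-2.45), Gem (-2.72) and Egr1 (-2.89) were called lower, Dusp5 was called higher (1.11), and Etv1 was not called (-1.19, adjusted p = 0.24).

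**Figure D3:**
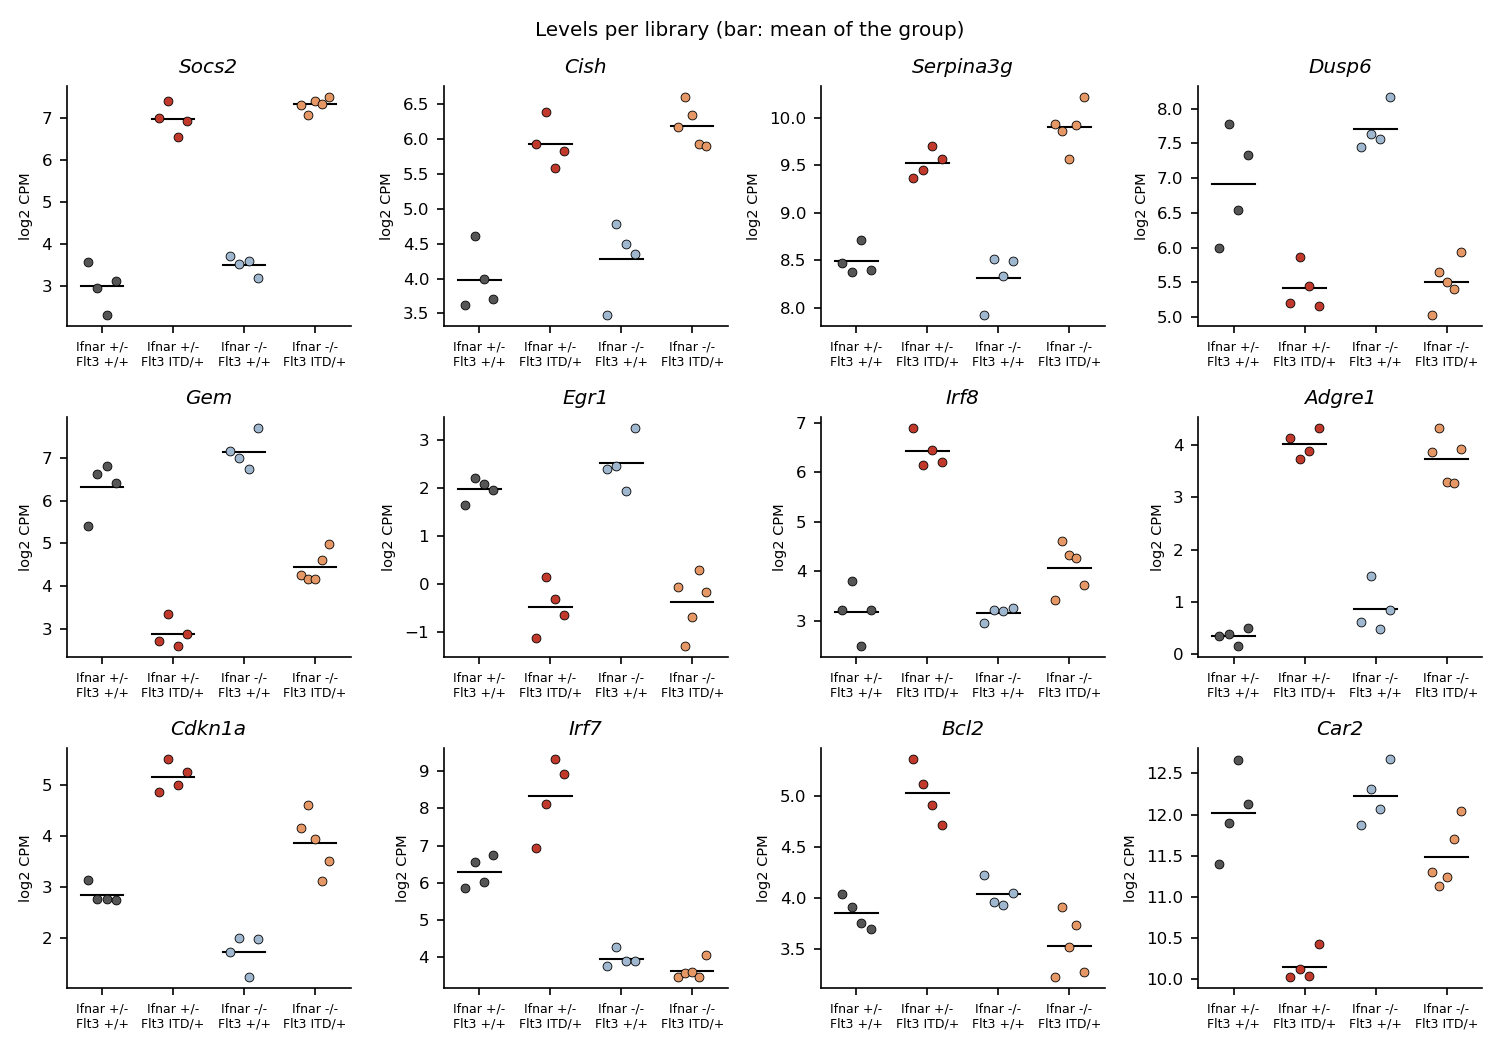
Log2 CPM of 12 genes in each P14 HPC library of the 4 genotypes, with bars at the group means. In the Ifnar +/- groups, the 4 ITD libraries lie wholly above or wholly below the 4 controls for each of these genes. In Ifnar -/- HPC, Irf7 overlaps between the ITD (3.47 to 4.07) and wild-type libraries (3.75 to 4.28), and Bcl2 is lower in the ITD libraries (3.23 to 3.92) than in the wild-type ones (3.93 to 4.22).

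Of 23 tested myeloid factors and receptors, 5 were called higher in ITD HPC and 1 lower (Gfi1), and of 18 dendritic cell genes 3 were called higher, Irf8 among both, and 0 lower (medians 0.25 and 0.7). Against control replicate 2 alone these were 1 and 0, and 2 and 0. The remaining calls were Csf2rb (log2 1.33 ± 0.23) and Csf2rb2 (1.51 ± 0.34), which encode near-identical shared beta chains of cytokine receptors, the chemokine receptor Cx3cr1 (1.77 ± 0.34) and Ly6d, a surface marker of lymphoid and dendritic precursors (2.04 ± 0.48). Gfi1, a repressor that guides granulocyte differentiation, stood at -0.94 ± 0.26 (adjusted p = 0.0423) and was called lower in 2 of the 8 fits that left out 1 library, those without control replicate 2 or 4. Irf8, the factor that directs progenitors towards monocytes and dendritic cells, was at 9.38, 14, 5.6 and 9.34 CPM in the controls and at 119, 70.6, 87.2 and 73.4 CPM in the ITD libraries. The groups lay far apart, and the increase was 9.14-fold (log2 3.19 ± 0.29, adjusted p = 4.52e-06; log2 2.64, adjusted p = 0.00693, against control replicate 2 alone). Irf8 in Ifnar -/- HPC was at 7.77 to 9.53 CPM in the wild-type libraries and 10.7 to 24.4 CPM in the ITD libraries (log2 0.97, adjusted p = 0.0881), and the difference of the Flt3 ITD effects was 2.22 (adjusted p = 0.053). Csf1r, the receptor of macrophage colony-stimulating factor, was at 7.74, 16, 3.21 and 9.71 CPM in the controls and at 42.9, 37.3, 66.2 and 45.6 CPM in the ITD libraries (log2 2.39 ± 0.42, adjusted p = 0.00367; 1.58, adjusted p = 0.323, against control replicate 2 alone).

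Adgre1, which encodes the F4/80 antigen, was at 1.27, 1.3, 1.11 and 1.41 CPM in the controls and at 17.5, 13.4, 14.9 and 20.1 CPM in the ITD libraries, a 12.9-fold increase (log2 3.69 ± 0.28, adjusted p = 5.92e-07). The 4 controls hardly differed, and against control replicate 2 alone the value was 3.65 (adjusted p = 0.00414). Clec10a, a lectin of dendritic cells and macrophages, rose from 14.9, 8.16, 13.2 and 7.71 CPM to 31.5, 28.9, 43.7 and 25.3 CPM (log2 1.56 ± 0.25, adjusted p = 0.0017; adjusted p = 0.025 against control replicate 2 alone). Both were also called higher in Ifnar -/- HPC (log2 2.87 and 2.73). Of the 13 macrophage markers tested, Adgre1 was the only one called higher. Hmox1, the heme-degrading enzyme, was called lower (log2 -2.11 ± 0.58, adjusted p = 0.0474, and up to 0.149 with 1 library left out), and the list's median log2 fold change was -0.97. C1qa was at 0.0781 to 0.672 CPM in the ITD libraries and 0.559 to 0.772 CPM in the controls. Among granule genes, Mpo stood at 6397 CPM in control replicate 1 and 493 to 625 CPM in the other controls, against 1255 to 3563 CPM in the ITD libraries, and was not called (log2 0.17 ± 0.73, adjusted p = 0.904). Elane was at 2129 CPM in control replicate 1 and at most 6.64 CPM in the other controls. Of 17 granule genes tested, 0 were called higher and 1 lower, against 2.77% and 2.36% of all genes. Without control replicate 1, 3 were called higher and 0 lower, in a fit that called 1.64% of all genes higher. The list's median log2 fold change was -0.37 with all controls and 1.56 against control replicate 2 alone.

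Of 58 interferon-response genes tested, 28 were called higher and 0 lower in ITD HPC with 1 Ifnar allele, with a median log2 fold change of 1.21. With the length covariate 9 were called higher, and against control replicate 2 alone 1 was, with medians of 1.02 and 0.83. Fold changes were positive for 55 of the 58 genes with all controls and for 55 against control replicate 2 alone. The mean log2 CPM of the list was 4.9, 5.44, 5.06 and 5.62 in the controls and 5.49, 6.33, 7.06 and 6.78 in the ITD libraries. ITD replicate 1 thus fell within the range of the controls, and it was the lowest ITD library for 27 of the 28 called genes. The groups did not overlap for 7 of the 28, against 79.8% of all 895 called genes and 11.3% of all genes tested. With single libraries left out, 7 (without ITD replicate 3) to 35 (without control replicate 2) were called higher. The count was 10, 9 and 13 without control replicates 1, 3 and 4 in turn, 34 without ITD replicate 1, 16 without ITD replicate 2 and 12 without ITD replicate 4. In Ifnar -/- HPC the list was at 3.42 to 3.83 in the wild-type libraries and 3.22 to 3.55 in the ITD libraries. There 2 of the 58 genes, Ifitm1 and Ifitm3, were called higher (against 0.647% of all genes) and 0 lower (0.309%). Of the 28 genes called in Ifnar +/-, 23 had a negative log2 fold change in Ifnar -/- HPC, and none of these decreases was called. Of all 895 Ifnar +/- calls, 496 (55.4%) had the same sign in Ifnar -/- HPC.

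Irf7, the factor that amplifies type I interferon production, was at 58.4, 94.4, 65.2 and 108 CPM in the controls and at 123, 279, 644 and 483 CPM in the ITD libraries (log2 2.23 ± 0.35, adjusted p = 0.00156; 2.01, adjusted p = 0.289, against control replicate 2 alone). The groups did not overlap, and ITD replicate 1 was near the highest control. Irf7 in Ifnar -/- HPC was at 11 to 16.7 CPM with the ITD and 13.5 to 19.3 CPM without. Oas1g, an oligoadenylate synthetase that senses viral RNA, was at 6.22, 4.82, 8.96 and 10.4 CPM in the controls and at 11.3, 26.6, 54.7 and 43.3 CPM in the ITD libraries (log2 2.16 ± 0.4, adjusted p = 0.00513; 2.81, adjusted p = 0.132, against control replicate 2 alone). It was at no more than 0.112 CPM in any Ifnar -/- library. The Oas1 genes are near-identical, and reads can be split between them. Ifi205, described next, is outside the list of interferon-response genes. It was added because it was called under every alternative. Ifi205, of the PYHIN family of DNA sensors, which also has near-identical relatives, was at 0.28, 0.376, 0.416 and 1.29 CPM in the controls and at 4.78, 1.96, 4.92 and 3.69 CPM in the ITD libraries, and was called in both fits (log2 2.68 ± 0.43, adjusted p = 0.00151; 3.34, adjusted p = 0.0159). Isg15, the ubiquitin-like modifier, was at 24.9, 27.8, 39.7 and 50.1 CPM in the controls and at 19, 66.5, 168 and 122 CPM in the ITD libraries, and was not called (log2 1.4 ± 0.45, adjusted p = 0.0717).

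Ifitm1, a membrane protein that restricts viral entry, was called higher in both Ifnar genotypes. It was at 827, 310.3, 619 and 411 CPM in the controls and at 1842, 2075, 2252 and 2355 CPM in the ITD libraries (log2 1.98 ± 0.24, adjusted p = 0.000145; 2.77, adjusted p = 0.000255, against control replicate 2 alone). In Ifnar -/- HPC it was at 317 to 481 CPM without the ITD and at 2536 to 3962 CPM with it (log2 2.92, adjusted p = 3.02e-06). The interaction for Ifitm1 was -0.94 (adjusted p = 0.0905).

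The Oas1g promoter is shown as the window of a called interferon gene that holds an ISRE-like motif, searched as GAAANNGAAA and its reverse complement TTTCNNTTTC. It lies at chr5:120887564-120887863 on the - strand of GRCm38.p6 (RefSeq), and capitals mark 2 overlapping matches.
Oas1g: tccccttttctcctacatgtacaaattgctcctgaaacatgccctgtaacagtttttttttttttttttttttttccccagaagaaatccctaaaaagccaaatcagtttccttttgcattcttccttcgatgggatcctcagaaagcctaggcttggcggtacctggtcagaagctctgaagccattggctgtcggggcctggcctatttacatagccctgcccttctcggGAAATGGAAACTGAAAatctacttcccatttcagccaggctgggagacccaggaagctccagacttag
Of the 43 interferon-response genes with an entry, 21 held this motif, against 3.99% of all genes with an entry.

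Of 22 tested MHC class I presentation genes, 6 were called higher and 0 lower in ITD HPC, and 0 either way against control replicate 2 alone. Leaving out 1 library at a time gave 4 to 10 called higher (10 without control replicate 2). H2-K1, a classical class I heavy chain, was at 596, 734, 638 and 640.3 CPM in the controls and at 1221, 1149.6, 1096 and 937 CPM in the ITD libraries (log2 0.76 ± 0.18, adjusted p = 0.0288; 0.57, adjusted p = 0.543, against control replicate 2 alone). Tap1, which pumps peptides into the endoplasmic reticulum, was at 53.3, 91.7, 52.7 and 67.8 CPM in the controls and at 138, 137, 178 and 142 CPM in the ITD libraries (log2 1.16 ± 0.19, adjusted p = 0.00156; 0.69, adjusted p = 0.278, against control replicate 2 alone). Neither gene's groups overlapped. Without ITD replicate 1, H2-K1 was not called (adjusted p = 0.0865). H2-D1 was among the 10 genes low in control replicates 1, 3 and 4. H2 genes share near-identical sequence, so reads can be split between them. Of 11 MHC class II genes tested, 3 were called higher and 0 lower, and with the length covariate 0 either way. Their median log2 fold change was 0.18 with all controls and 0.66 against control replicate 2 alone. Class II genes H2-Aa, H2-Ab1 and H2-Eb1 were called higher, and in each of them ITD replicate 1 was the highest library: H2-Aa was at 108, 24.8, 32.7 and 32 CPM in the ITD libraries and 5.18 to 16.4 CPM in the controls (log2 2.15 ± 0.43, adjusted p = 0.00973; adjusted p = 0.183 against control replicate 2 alone).

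**Figure D4:**
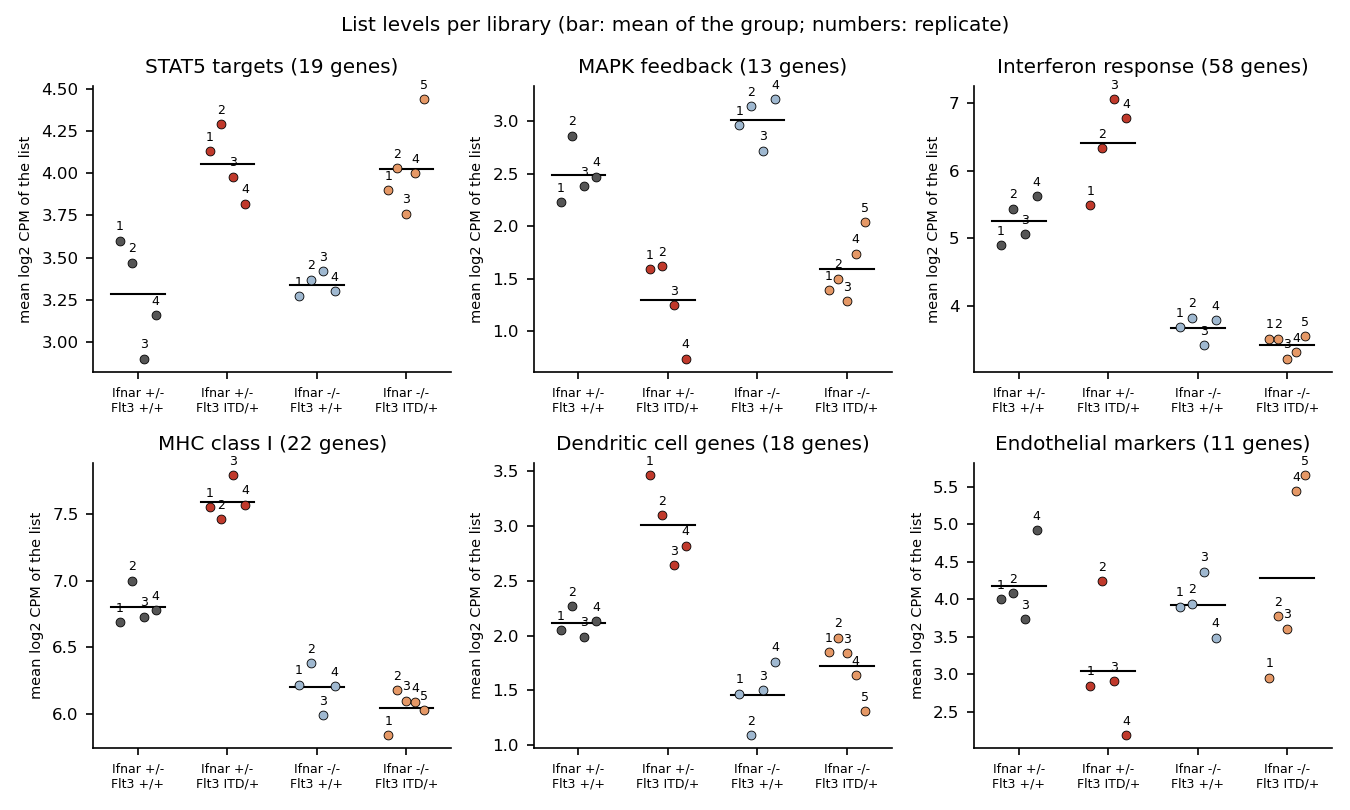
Mean log2 CPM of 6 gene lists in each P14 HPC library of the Ifnar and Flt3 genotypes, with replicate numbers and bars at the group means. Interferon-response levels are 4.9 to 5.62 in the Ifnar +/- controls, 5.49 to 7.06 in the Ifnar +/- ITD libraries and at most 3.83 in Ifnar -/- HPC. STAT5 target means are 3.28 without and 4.05 with the ITD in Ifnar +/- HPC, and 3.34 and 4.02 in Ifnar -/- HPC.

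The Flt3 ITD effect differed between Ifnar +/- and Ifnar -/- HPC for 2 of 17464 genes (0.0115%) in the test of the difference. At an adjusted p under 0.1, which is no call here, there were 2580 genes (14.8%). Of the 58 interferon-response genes, 31 were among them. The difference of the effects was positive for 53 of these 58, against 49.3% of all genes. The 2 contrasts had opposite length trends (rho 0.53 and -0.533), and with the length covariate 0 genes were called. The part of gene length in these calls was not tested. Bcl2, the anti-apoptotic protein, was at 4.04, 3.92, 3.76 and 3.7 log2 CPM in the controls and at 5.36, 5.12, 4.92 and 4.72 log2 CPM in the ITD libraries, a 2.28-fold increase without overlap (log2 1.19 ± 0.18, adjusted p = 0.000987; 1.12, adjusted p = 0.107, against control replicate 2 alone). With Ifnar -/- it was at 3.93 to 4.22 log2 CPM without the ITD and 3.23 to 3.92 log2 CPM with it, and the difference of the effects was 1.67 on the log2 scale (adjusted p = 0.0293). Nlrc5, the transactivator of class I genes, was at 6.84, 14.6, 4.85 and 7.68 CPM in the controls and at 30.3, 32.8, 35.3 and 22.9 CPM in the ITD libraries (log2 1.83 ± 0.36, adjusted p = 0.00814). Its Ifnar -/- libraries were at 3.23 to 12.5 CPM without the ITD and 1.86 to 3.87 CPM with it, and the difference of the effects was 3.22 (adjusted p = 0.0327). Neither was called without control replicates 1, 3 and 4, when 0 genes were (788 at an unadjusted p under 0.05), and DESeq2 called 2467.

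Of the genes called in Ifnar +/- HPC, 103 were called in Ifnar -/- HPC too, which is 11.5% of the 895 Ifnar +/- calls and 61.7% of the 167 Ifnar -/- calls. All 103 had the same direction. Of the 895 calls, 496 had the same sign in Ifnar -/- HPC.

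**Figure D5:**
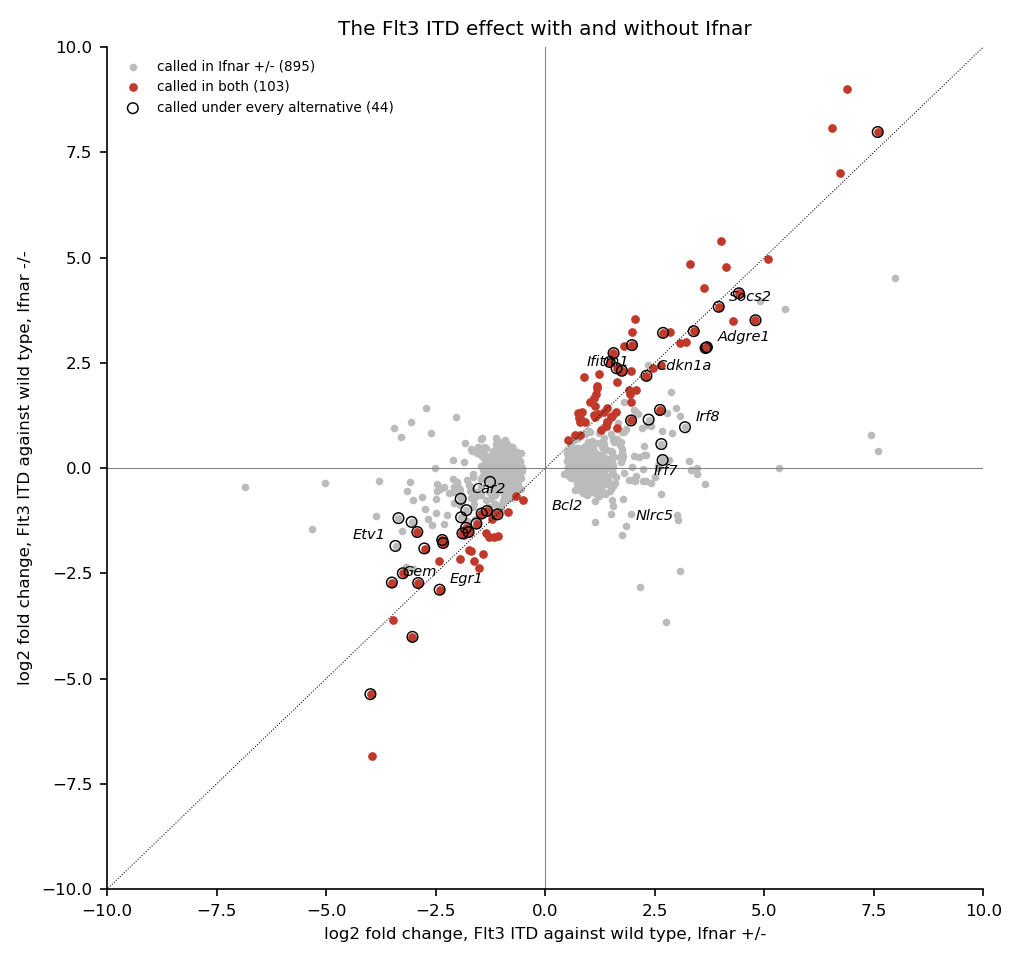
Log2 fold change of Flt3 ITD against wild type in Ifnar +/- HPC (horizontal) and Ifnar -/- HPC (vertical) for the 895 genes called in Ifnar +/-. Red points are the 103 called in both, open rings the 44 called under every alternative, and the dotted line marks equal effects.

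Among 17 tested CDK inhibitors and G1 cyclins and kinases, 2 were called higher and 4 lower. Cdkn1a, which encodes the CDK inhibitor p21, was at 8.81, 6.77, 6.75 and 6.7 CPM in the controls and at 29, 45.3, 31.8 and 38 CPM in the ITD libraries, a 4.96-fold increase (log2 2.31 ± 0.27, adjusted p = 9.6e-05; 2.4, adjusted p = 0.0325, against control replicate 2 alone). It was the only call among 16 p53 targets. Cdk6, a G1 kinase, was called higher (log2 0.97 ± 0.19, adjusted p = 0.00675) and Cdkn2d, an inhibitor of Cdk4 and Cdk6, lower (-0.91 ± 0.19, adjusted p = 0.0101), and neither was called against control replicate 2 alone. None of the 26 G2/M genes or 26 S phase genes tested was called with all controls, with medians of 0.11 and 0.19. Without control replicate 2, 4 G2/M genes were called higher and 5 lower, and 10 S phase genes higher and 6 lower, in a fit that called 18.7% of all genes higher and 14.7% lower.

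Among 25 HSC markers, 4 were called lower and 0 higher, and against control replicate 2 alone Hlf and Mecom were called lower. With single libraries left out, 1 (without ITD replicate 1 or 3), 2 (without ITD replicate 2) or 3 to 4 were called lower, and without control replicate 2, 5 were called higher, in a fit that called 18.7% of all genes higher. Hlf, a factor of stem cell self-renewal, was at 160.4, 321, 191 and 204 CPM in the controls and at 127, 116, 117 and 136 CPM in the ITD libraries (log2 -0.82 ± 0.19, adjusted p = 0.0233; -1.38, adjusted p = 0.00463, against control replicate 2 alone; adjusted p = 0.0736 without ITD replicate 3). Procr, which encodes the endothelial protein C receptor, was at 38.8, 38.4, 69.1 and 45.7 CPM in the controls and at 16.7, 25, 21.8 and 22.6 CPM in the ITD libraries (log2 -1.16 ± 0.21, adjusted p = 0.00403; -0.84, adjusted p = 0.172, against control replicate 2 alone). Ndn and Cdkn1c, both imprinted growth regulators, were the other 2. The median log2 fold change over the 25 HSC markers was -0.16 with all controls and -0.63 against control replicate 2 alone. Of 27 lymphoid priming genes, 5 were called lower and 0 higher, and 0 either way against control replicate 2 alone. The list's median log2 fold change was -0.05 with all controls and -0.32 against control replicate 2 alone. Its mean log2 CPM was 4.83 in the controls and 4.81 in the ITD libraries. The count called lower was 1 without ITD replicate 3, 2 without ITD replicate 1 and 3 without control replicate 3. Without control replicate 2, 4 were called higher, near the share of all genes in that fit. Ccr9, a homing receptor of lymphoid progenitors, was at 19, 38.4, 39.9 and 40.9 CPM in the controls and at 7.81, 12.8, 2.45 and 12.5 CPM in the ITD libraries (log2 -1.96 ± 0.36, adjusted p = 0.00513).

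Car2, a carbonic anhydrase of erythroid cells, was at 2690.1, 3805, 6467 and 4466 CPM in the controls and at 1040.0, 1118, 1049 and 1373 CPM in the ITD libraries, a 3.81-fold decrease without overlap (log2 -1.93 ± 0.26, adjusted p = 0.000346; -1.74, adjusted p = 0.00943, against control replicate 2 alone). The globins Hbb-bt and Hbb-bs, which are near-identical, were called lower with it, and no other of the 24 erythroid genes was called. For both globins, control replicate 2 was the lowest control. Hbb-bt was at 6.82 log2 CPM in it, 7.39 to 8.04 in the other controls and 5.53 to 6.13 in the ITD libraries. Hbb-bs was at 3.69, 4.41 to 5.64 and 2.45 to 3.22 log2 CPM. Car2 was not called in Ifnar -/- HPC (log2 -0.73, adjusted p = 0.209).

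Constant-region genes of 2 T cell receptor chains were called in opposite directions. Trbc2, of the beta chain, was at 25.6, 32.4, 75.6 and 62 CPM in the controls and at 4.58, 8.05, 3.04 and 7.91 CPM in the ITD libraries (log2 -3.05 ± 0.4, adjusted p = 0.00036; -2.47, adjusted p = 0.025, against control replicate 2 alone). Tcrg-C1, of the gamma chain, was at 1.37, 1.24, 0.495 and 0.399 CPM in the controls and at 11.7, 16.4, 10 and 18.6 CPM in the ITD libraries (log2 4.01 ± 0.58, adjusted p = 0.000809; 3.5, adjusted p = 0.157, against control replicate 2 alone). Neither gene's groups overlapped, and with the ITD in Ifnar -/- HPC Tcrg-C1 was called higher (log2 5.4) and Trbc2 was not called (-1.28, adjusted p = 0.118). Of the 13 T and NK cell markers, 7 passed the filter on low counts, and Cd3g stood at no more than 0.156 CPM in any of the 8 libraries. Markers of blood vessels and stroma had a negative median difference, a log2 fold change of -0.85 over 11 endothelial and -1.51 over 11 stroma markers tested. The summed level of the endothelial markers was 414 to 586 CPM in the controls and 275 to 462 CPM in the ITD libraries, and that of the stroma markers 141 to 519 CPM and 68.1 to 208 CPM. The mean log2 CPM of the stroma markers was 0.26, -0.04, -0.26 and 1.46 in the controls and -1.64, 0.25, -1.57 and -2.08 in the ITD libraries, so that only ITD replicate 2 lay within the range of the controls. None of the stroma markers was called. Emcn, a sialomucin of endothelium and stem cells, was the 1 endothelial marker called, lower in ITD HPC (log2 -1.36 ± 0.26, adjusted p = 0.00636; adjusted p = 0.359 against control replicate 2 alone). The part of such cells in the results was not tested.

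In all, 44 genes were called in the same direction with all controls and under each of the 22 alternatives in which they were tested, 20 higher and 24 lower. They were selected by these values, and their count is a description. The smallest absolute log2 fold change among them was 1.09. All 44 had the same sign in Ifnar -/- HPC, and 33 were called there too. Besides Socs2, Adgre1, Irf8, Cdkn1a, Ifitm1, Ifi205 and Clec10a, the genes that were higher included S1pr3, a sphingosine phosphate receptor, the scavenger receptor Lrp1, the prion protein gene Prnp, and Il18r1, which encodes a chain of the interleukin-18 receptor. S1pr3 was at 5.9, 5.03, 0.97 and 4.2 CPM in the controls and at 47.3, 54.7, 55 and 46.6 CPM in the ITD libraries (log2 3.66 ± 0.46, adjusted p = 0.000183; 3.33, adjusted p = 0.0255, against control replicate 2 alone). Prnp was at 1.45, 1.49, 1.66 and 0.97 CPM in the controls and at 7.31, 11.4, 6.15 and 10.9 CPM in the ITD libraries. Ccn3, a secreted matricellular protein, was at 0.118 CPM in control replicate 1 and at 0 in the others, against 5.75, 8.48, 2.97 and 6.82 CPM in the ITD libraries. Besides Gem, Egr1, Etv1, Spred2, Car2 and Trbc2, the genes that were lower included Tnip3, an inhibitor of NF-kB signalling, Osgin1, Cfp (properdin of the complement system) and Cd33. Tnip3 was at 32.9, 44.4, 66.8 and 51.6 CPM in the controls and at 8.78, 12.2, 8.49 and 9.4 CPM in the ITD libraries (log2 -2.33 ± 0.2, adjusted p = 3.14e-06; -2.2, adjusted p = 2.26e-05, against control replicate 2 alone). Control replicates 1, 3 and 4 did not stand apart from replicate 2 in Adgre1, Prnp or Cd33, the last of which was at 26, 29.3, 29 and 22.8 CPM in the controls and at 12.3, 15, 9.79 and 13.1 CPM in the ITD libraries.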

How the data were processed

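RNA of P14 HPC was sequenced in the 8 libraries compared here and in 9 libraries of Ifnar -/- HPC. Qiagen and Clontech kits were used for RNA and cDNA, per the labels. The authors deposited raw read counts per gene. The submitters' processing notes list STAR 3.0.4, Subread and featureCounts 1.4.5, per the labels. The sources used here state no build, annotation release or strand setting. Reads of overlapping or antisense genes therefore cannot be told apart.

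Counts of all 17 libraries were fitted together with edgeR 4.0.16 (R 4.3.3): TMM factors, the default filter on low counts, the robust quasi-likelihood F-test, Benjamini-Hochberg adjustment over 17464 genes. SE is the log2 fold change divided by the root of F. Log2 CPM used a prior count of 2, and a list level is its mean over the list's genes. The script was tested on simulated data. Alternatives included DESeq2 1.42.0 and limma-voom (limma 3.58.1). Exon lengths came from GENCODE M21 (17454 of 17464 genes), and promoters from RefSeq.

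Genes named were Ifnar1, Ifnar2 and Flt3. Then came called genes without overlap between groups, the 12 largest changes per direction at a mean log2 CPM of 3 or more and the 5 largest at 0 to 3, then up to 4 called members per list of smallest adjusted p, members needed for a pathway, and the called interactions, without predicted genes or pseudogenes. Of the 93 genes so named, those described here were taken by role. Genes called under every alternative were added after their values were seen, as were the fits without control replicates 1, 3 and 4. The members and lists were chosen with earlier results of these data known. The 40 lists, the pairing of replicate numbers, 22 alternatives and the sex-linked genes were checked as well.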

Additional observations from a re-analysis of the deposited data

Results flagged for a closer look

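In groups of 4 libraries, a library was listed where its gap to the nearest other one, as a share of the group's range, was above Dixon's critical value. Of 188 group checks, 9 met this, and chance gives about 1 in 20. The length correlation of control replicate 2 (0.536) lay far above those of the other controls (-0.588 to -0.471). Among controls, Ccr9 was low in replicate 1 (log2 CPM 4.25, others 5.26 to 5.35), Cdkn1a was high in replicate 1 (3.14, others 2.75 to 2.76), and H2-Ab1 was high in replicate 4 (4.05, others 3.73 to 3.78). S100a8, a neutrophil granule gene, was high in control replicate 1 (4.36, others -1.22 to -0.73), the library that also held the highest Mpo and Elane. Among ITD libraries, Cxcr3 was low in replicate 3 (1.75, others 2.46 to 2.48) and Tap1 high in replicate 3 (7.47, others 7.1 to 7.15). H2-Ab1 and H2-Eb1, both class II genes, were high in ITD replicate 1 (6.36, others 4.66 to 4.95, and 5.49, others 3.14 to 3.5).

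The Flt3 ITD effect was larger in Ifnar +/- than in Ifnar -/- HPC for Bcl2, by 1.67 log2 units (adjusted p = 0.0293), and for Nlrc5, by 3.22 (adjusted p = 0.0327), in the edgeR test of the difference. With the length covariate, 0 genes were called in this test.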

How the results depend on the processing

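The counts of calls depended on the setting. Most named genes were picked because they were called with all controls, so their kept direction is a description and no test. With all controls, 483 genes were called higher and 412 lower. Higher and lower calls numbered 1286 and 1370 with DESeq2, 2714 and 1989 with limma-voom and quality weights, 113 and 101 with the length covariate, 101 and 63 with only the 8 libraries, 106 and 67 against a log2 fold change of 0.5, 48 and 86 without control replicates 1, 3 and 4, and 46 and 125 when the length trend was removed as well. Without a filter 313 were called higher, and 673 were called lower with the length trend removed. Upper-quartile factors moved the median of all genes to -0.218 and gave 568 higher and 2078 lower calls. With single libraries left out, higher calls ran from 153 (without control replicate 3) to 3264 (without control replicate 2) and lower calls from 111 (without ITD replicate 3) to 2564 (without control replicate 2). The cause of these shifts was not tested.

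The difference of the ITD effects, called for 2 genes, was called for 1965 with upper-quartile factors, 4 without a filter, 5 at 1 CPM in 4 libraries, 2467 with DESeq2, 4743 with limma-voom, 1 with the replicate block, 0 with the length covariate, 5 with the length trend removed, 0 with the Y-linked level as covariate, 0 without control replicates 1, 3 and 4 with or without removal of the trend, and 0 to 5645 with single libraries left out.

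The replicate number as a block gave 1008 higher and 577 lower calls. Same-numbered libraries correlated by 0.111, 0.0164, -0.00497 and 0.00441 in their deviations from the group means. These values cannot tell whether same-numbered libraries share an origin, which the titles do not state. Of 93 named genes, 90 stayed on their side of the threshold under the block.

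Over the named genes and all alternatives, 1595 values kept direction and side of the threshold, 436 lost the call, 8 gained one and 5 reversed. The reversed ones were not called: Flt3 at -0.05 with the length covariate, -1.11 without control replicates 1, 3 and 4 and -1.12 with the trend removed too, and Ifnar2 at -0.25 and -0.34 in the last 2 fits. A prior count of 0.5 moved no list level by as much as the SD between libraries. Depth was at least 58400350 reads a library.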

Other observations

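Of 21 tested genes of cholesterol synthesis, 5 were called higher in ITD HPC and 0 lower, against 2.77% and 2.36% of all genes. Those of smallest adjusted p were Hmgcs1, which makes the precursor of mevalonate (log2 1.15 ± 0.27, adjusted p = 0.0239), Sqle, the squalene epoxidase (1.2 ± 0.29, adjusted p = 0.0254), Idi1 (0.79 ± 0.2, adjusted p = 0.0354) and Hsd17b7 (0.75 ± 0.2, adjusted p = 0.0406). Hmgcs1 was at 25.1, 53.4, 16.2 and 39.1 CPM in the controls and at 60.9, 67.3, 94.5 and 74 CPM in the ITD libraries, and the log2 difference from control replicate 2 alone was 0.47 (adjusted p = 0.591). With single libraries left out, 0 (without control replicate 3 or ITD replicate 3) to 12 (without control replicate 2) of the 21 were called higher. The fit without control replicate 2 called 18.7% of all genes higher. With the length covariate, 0 of the 21 were called either way. The list's median log2 fold change was 0.61 with all controls and 0.33 against control replicate 2 alone.

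Eosinophil granule genes varied between libraries of both groups: Prg2 was at 504, 31, 138 and 87.5 CPM in the controls and at 94, 0.292, 0.476 and 0.868 CPM in the ITD libraries, and was not called (log2 -2.99 ± 2.59, adjusted p = 0.463). Reads of Y-linked genes marked control replicates 2 and 3 and ITD replicates 1 and 2 as male, so each group held 2 male and 2 female libraries.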
